A study of Homo sapiens with 36 samples.

Results

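The genes described here are 44 genes of DNA replication and the cell cycle, of 21599 gene rows in the expression table. They were chosen by their known function, with earlier results of these data known, and fall into 28 S-phase genes, 15 mitotic genes and CDKN1A, which encodes the cell cycle inhibitor p21. All 44 were found in the table, and all 44 passed the filter on low values that left 21232 genes for testing. RNA-seq had been run on 36 libraries of THP-1 cells, a human acute monocytic leukaemia line, in 12 groups of 3 libraries. Every group had first received 100 nM PMA, a phorbol ester that drives these cells into a macrophage-like state, for 72 h. The groups were IRG1 knockout (KO) cells stimulated over 6, 12 or 24 h with LPS together with IFN-γ, each at 200 ng/mL, wild-type (WT) cells stimulated in the same way, and KO cells and WT cells left on vehicle over the same 3 spans. IRG1, now called ACOD1, encodes the enzyme that produces itaconate from cis-aconitate. The labels do not say whether the KO cells are 1 clone or a pool, nor whether replicates are separate cultures, and every p-value here therefore rests on the spread among these libraries alone. The comparisons ask what LPS with IFN-γ does to these genes in each genotype, and whether the loss of IRG1 alters their level or their response.

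Values are log2 expression levels as deposited. They are not scaled by gene length, so levels are compared between libraries of one gene and never between genes. In each set of 3 values the libraries stand in the order of replicates 1, 2 and 3, a value after ± is a standard error, and a gene is called where limma's p-value, adjusted by Benjamini-Hochberg over all 21232 genes, is below 0.05. The label check on ACOD1 gave log2 levels from 7.98 to 10.22 in stimulated KO libraries and from 9.20 to 12.76 in stimulated WT libraries, against at most 0.33 in KO vehicle and 0.86 in WT vehicle libraries. The transcript was thus present in stimulated KO cells, and lower there than in stimulated WT cells by a log2 difference of -2.49 ± 0.27 on the mean of 3 times (adjusted p = 1.24e-07). Of 16 macrophage markers, 14 to 16 had a mean at or above log2(10) in each arm (KO or WT, stimulated or vehicle). So did 11 to 13 of 15 myeloid precursor markers and 3 to 5 of 10 markers of other cell types. The level log2(10) lies under the median of all genes in every library, 5.47 to 5.48, so reaching it does not by itself mark a cell type. The libraries KO stimulated 6 h replicate 2 and WT stimulated 24 h replicate 3 had the lowest mean correlation to the other libraries of their group, 0.796 and 0.863, against 0.875 to 0.968 in the other 34. The table gives log2 values without counts, and the depth of each library is therefore unknown.

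In a cycling cell, origins are licensed in G1 when CDC6 and CDT1 load the MCM2 to MCM7 helicase, and they fire in S phase when CDC45 and the GINS complex turn that helicase on. E2F factors switch on these replication genes once cyclin-dependent kinases have inactivated the RB family, while the genes of mitosis follow later under FOXM1 and B-MYB. Macrophages that mature from monocytes usually leave the cycle, and p21 is the inhibitor best known for holding them there.

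By 24 h stimulation had lowered nearly all of these genes in both genotypes, and it raised CDKN1A at every time. In KO cells 20, 26 and 26 of the 28 S-phase genes were called lower in stimulated than in vehicle cells at 6, 12 and 24 h, beside 22.5%, 19.5% and 21.6% of all genes tested. In WT cells the S-phase counts were 20, 25 and 27, beside 20.9%, 21.7% and 26.1% of all genes. Of the 15 mitotic genes 11, 11 and 15 were called lower in KO cells and 8, 12 and 15 in WT cells. No S-phase or mitotic gene was called higher in any of the 6 comparisons. The median log2 change of the S-phase genes was -1.74, -1.97 and -2.48 at 6, 12 and 24 h in KO cells and -1.77, -2.15 and -3.20 in WT cells. For the mitotic genes the median change was -1.81, -2.02 and -2.88 in KO cells and -1.58, -1.92 and -2.96 in WT cells, while the median over all genes was -0.20, -0.12 and -0.08 in KO cells and -0.17, -0.18 and -0.11 in WT cells. Lower at all 3 times were 19 S-phase and 9 mitotic genes in KO cells, and 20 S-phase and 7 mitotic genes in WT cells. The share of all genes lower at all 3 times was not counted. It can be at most the lowest share at a single time, 19.5% in KO and 20.9% in WT cells. A count in one genotype is not set against the other here, since a call in one and not in the other does not show that they differ. In bulk RNA, fewer cycling cells and less of these transcripts per cell cannot be told apart.

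At 6 and 12 h the mitotic counts fell when any one of several libraries was left out. Mitotic calls that held whichever library was left out were 3 of 11 and 2 of 11 in KO cells and 3 of 8 and 3 of 12 in WT cells. A larger part of the S-phase calls held, 14 of 20 and 19 of 26 in KO cells and 15 of 20 and 19 of 25 in WT cells. At 12 h, 11 mitotic genes were called in KO cells, and 2 without KO stimulated replicate 2, 4 without KO vehicle replicate 1 and 5 without KO vehicle replicate 3. At 12 h in WT cells 12 were called, and 3 without WT stimulated replicate 2, 5 without WT vehicle replicate 1 and 5 without WT vehicle replicate 3. At 6 h, 11 were called in KO cells, and 3 without KO stimulated replicate 2 or KO vehicle replicate 1 and 4 without KO vehicle replicate 3. At 6 h in WT cells 8 were called, and 4 without WT stimulated replicate 1 and 3 without WT stimulated replicate 2, WT vehicle replicate 1 or WT vehicle replicate 3. At 24 h, 23 of 26 S-phase and 10 of 15 mitotic calls in KO cells held whichever library was left out, and so did 27 of 27 S-phase and 10 of 15 mitotic calls in WT cells. The mitotic calls lost at 24 h in one or more of these fits were AURKA, CCNB1, CDC20, MKI67 and PLK1 in both genotypes. With all 12 replicate 2 libraries left out, 14, 13 and 14 mitotic genes were called lower in KO cells at 6, 12 and 24 h, and 14, 14 and 14 in WT cells. Replicate numbers paired the libraries in 5 of these 6 comparisons, all but KO cells at 24 h. With replicate number as a block 12 mitotic genes were called lower in KO cells at 6 h and 15 at 12 h, and 13, 14 and 15 in WT cells at 6, 12 and 24 h. The block added CCNB1 and CCNE2 at 6 h and CCNB1 and PLK1 at 12 h in both genotypes, RRM2 at 6 h and BUB1 and MKI67 at 12 h in KO cells, and CCNB2, BUB1, FOXM1 and TOP2A at 6 h and POLA1 and POLE at 12 h in WT cells.

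**Figure D1:**
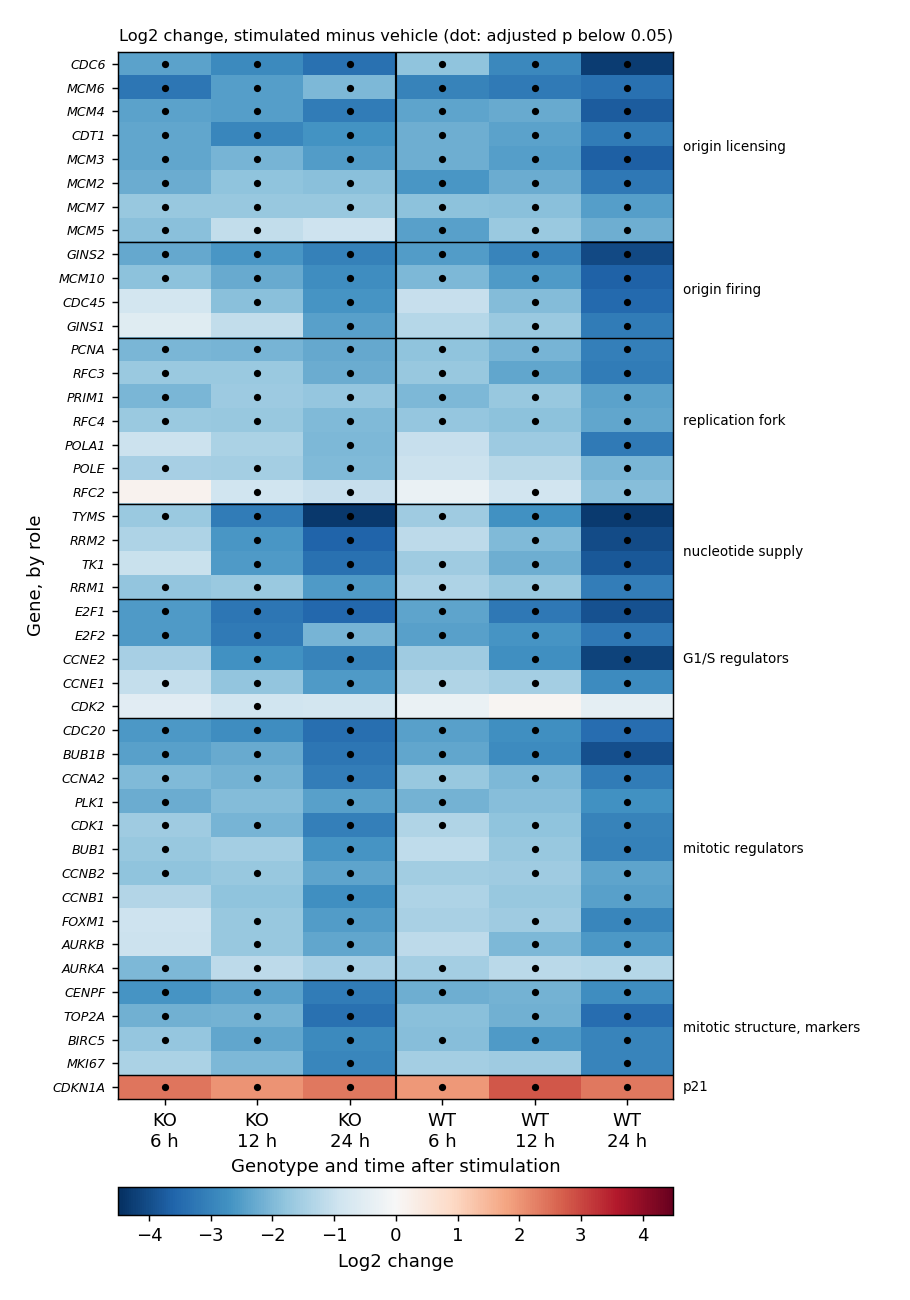
Log2 change, stimulated minus vehicle, of the 44 genes (rows, grouped by role and ordered within a role by mean change) in KO and WT cells at 6, 12 and 24 h (columns). Blue is lower and red higher in stimulated cells, a dot marks an adjusted p below 0.05, and CDKN1A is the only row that is red in all 6 columns.

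The promoters of the S-phase and mitotic genes differed in some sequence words, while another, CCAAT, was common in both. RefSeq promoters (build GRCh38.p14, 250 bases before to 50 bases after the start) were at hand for 37 of the 44 genes, 24 of them S-phase and 12 mitotic. The words searched on both strands were the E2F words TTTCCCGC and TTTGGCGC, the CHR words TTTGAA and TTCGAA (the cell cycle genes homology region, a known element of mitotic promoters) and the NF-Y word CCAAT. An E2F word stood in 14 of 24 S-phase promoters, which is 58.3% (exact 95% interval 36.6 to 77.9), in 0 of 12 mitotic promoters (0 to 26.5) and in 3.06% of 15842 protein-coding promoters. A CHR word stood in 2 of 24 S-phase promoters, 8.33% (1.03 to 27.0), in 9 of 12 mitotic promoters, 75% (42.8 to 94.5), and in 13.5% of protein-coding promoters. CCAAT stood in 15 of 24 S-phase promoters, 62.5% (40.6 to 81.2), in 11 of 12 mitotic promoters, 91.7% (61.5 to 99.8), and in 36.4% of protein-coding promoters. Matches of E2F words overlapped no match of the other words, and 1 CHR match overlapped a CCAAT match. The 14 S-phase genes with an E2F word had a median mean change over the 6 comparisons of -2.59 (range -3.14 to -1.55), and the 10 without one had -2.0 (range -2.52 to -0.81). The 9 mitotic genes with a CHR word had a median of -2.24 (range -2.90 to -1.91), while CCNA2, CCNB1 and AURKB, without one, had -2.34, -1.90 and -1.79. A match here is a description of letters and not a binding site.

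Shown 5′ to 3′ are the promoters of E2F1 and MCM6, S-phase genes with E2F and CCAAT words, and of CDC20 and CCNB2, mitotic genes with CHR and CCAAT words. Capitals mark every matched word on either strand, which in MCM6 takes in a CHR word as well. E2F1 had the largest mean fall of the 44 genes, MCM6 the largest fall at 6 h, and CDC20 the largest of the mitotic regulators.
E2F1, chr20:33686336-33686635, minus strand: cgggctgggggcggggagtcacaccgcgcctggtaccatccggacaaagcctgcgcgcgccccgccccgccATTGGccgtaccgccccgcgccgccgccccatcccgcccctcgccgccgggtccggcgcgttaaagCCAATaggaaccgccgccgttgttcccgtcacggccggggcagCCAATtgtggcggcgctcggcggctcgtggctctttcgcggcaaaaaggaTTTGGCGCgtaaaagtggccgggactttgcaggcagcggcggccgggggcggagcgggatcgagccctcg
MCM6, chr2:135876394-135876693, minus strand: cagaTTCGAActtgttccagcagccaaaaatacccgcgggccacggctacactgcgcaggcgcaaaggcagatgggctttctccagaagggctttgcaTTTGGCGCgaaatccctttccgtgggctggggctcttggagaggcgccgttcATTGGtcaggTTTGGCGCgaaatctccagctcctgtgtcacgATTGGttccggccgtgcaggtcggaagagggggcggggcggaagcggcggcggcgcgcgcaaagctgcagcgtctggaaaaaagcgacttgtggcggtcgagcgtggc
CDC20, chr1:43358731-43359030, plus strand: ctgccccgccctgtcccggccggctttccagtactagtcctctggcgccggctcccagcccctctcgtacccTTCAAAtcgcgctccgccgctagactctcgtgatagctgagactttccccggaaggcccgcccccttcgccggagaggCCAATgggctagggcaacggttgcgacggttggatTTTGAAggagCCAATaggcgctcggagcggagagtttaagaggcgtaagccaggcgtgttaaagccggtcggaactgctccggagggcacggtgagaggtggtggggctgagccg
CCNB2, chr15:59104896-59105195, plus strand: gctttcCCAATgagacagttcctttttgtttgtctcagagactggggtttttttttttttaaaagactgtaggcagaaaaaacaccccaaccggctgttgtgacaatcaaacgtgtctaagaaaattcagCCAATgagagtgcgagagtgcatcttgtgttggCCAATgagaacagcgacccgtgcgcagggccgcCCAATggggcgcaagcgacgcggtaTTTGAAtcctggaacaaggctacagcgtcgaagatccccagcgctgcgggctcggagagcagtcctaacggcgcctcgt

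Origin licensing was the one role of several genes of which every member was called at 6 h. All 8 were called lower at 6 h in both genotypes, with a median log2 change of -2.35 in KO cells and -2.29 in WT cells, and 7 in KO and 8 in WT cells were called at 24 h. CDC6, the loader of the MCM helicase, changed most on average.

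CDC6 had log2 levels of 5.61, 4.76, 5.60 (6 h), 5.01, 4.68, 4.88 (12 h) and 4.30, 4.15, 4.20 (24 h) in stimulated KO cells. CDC6 levels in stimulated WT cells were 6.32, 6.69, 6.67 (6 h), 5.34, 3.93, 5.35 (12 h) and 5.09, 3.92, 4.34 (24 h). All 18 stimulated levels lay below all 18 vehicle levels. CDC6 in vehicle KO cells stood at 7.85, 8.04, 7.25 (6 h), 7.72, 8.53, 6.89 (12 h) and 7.25, 8.70, 6.74 (24 h). CDC6 in vehicle WT cells stood at 7.84, 9.31, 7.95 (6 h), 7.19, 8.92, 7.20 (12 h) and 8.40, 9.20, 8.59 (24 h). Among vehicle libraries replicate 2 was the highest of its group in 6 of 6 groups. For CDC6 the log2 change was -2.39, -2.86 and -3.34 at 6, 12 and 24 h in KO cells (adjusted p = 0.000368, 5.02e-05 and 4.78e-06) and -1.81, -2.90 and -4.28 in WT cells (adjusted p = 0.00546, 4.17e-05 and 7.99e-08). CDC6 lost its 6 h call in WT cells without vehicle replicate 2 (-1.34). At 24 h CDC6 was 10.1-fold lower in stimulated KO cells and 19.4-fold lower in stimulated WT cells.

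MCM5, a subunit of the helicase ring, changed least of the licensing genes. MCM5 had log2 levels of 7.31, 7.67, 6.97 (6 h), 8.12, 7.97, 7.62 (12 h) and 8.47, 7.26, 7.94 (24 h) in stimulated KO cells. MCM5 levels in stimulated WT cells were 7.31, 7.50, 7.14 (6 h), 7.69, 7.50, 7.62 (12 h) and 7.69, 7.45, 7.49 (24 h). Stimulated KO cells at 24 h held the highest of the 18 stimulated levels. MCM5 in vehicle KO cells stood at 9.20, 9.65, 8.70 (6 h), 9.12, 9.62, 8.29 (12 h) and 8.82, 9.46, 8.21 (24 h). MCM5 in vehicle WT cells stood at 9.32, 10.47, 9.45 (6 h), 8.90, 10.21, 8.74 (12 h) and 9.51, 10.27, 9.41 (24 h). The stimulated and vehicle levels of MCM5 overlapped in KO cells at 24 h and in no other pair of groups. Its log2 change was -1.87 ± 0.39, -1.10 ± 0.39 and -0.94 ± 0.39 at 6, 12 and 24 h in KO cells (adjusted p = 0.000314, 0.0262 and 0.0554), so the last was not called, and -2.43 ± 0.39, -1.68 ± 0.39 and -2.19 ± 0.39 in WT cells (adjusted p = 1.23e-05, 0.00104 and 3.75e-05). MCM5 lost its 12 h call in KO cells without stimulated replicates 2 or 3 or vehicle replicates 1 or 2 (-1.14 to -0.80). MCM5 gained a 24 h call in KO cells without stimulated replicate 1 or vehicle replicate 3 (-1.24 to -1.23).

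MCM6, another subunit of the ring, had the largest change of the 44 genes at 6 h in both genotypes. Its log2 levels were 5.91, 4.70, 5.78 (6 h), 6.30, 6.75, 6.19 (12 h) and 7.15, 7.36, 6.41 (24 h) in stimulated KO cells, lowest at 6 h. MCM6 levels in stimulated WT cells were 6.56, 6.79, 6.13 (6 h), 5.74, 6.44, 5.93 (12 h) and 6.81, 6.96, 5.41 (24 h). MCM6 in vehicle KO cells stood at 8.92, 8.98, 8.27 (6 h), 8.82, 9.80, 8.10 (12 h) and 8.94, 9.71, 8.28 (24 h). All 18 stimulated levels were below all 18 vehicle levels, and replicate 2 was the highest library in each of the 6 vehicle groups. MCM6 in vehicle WT cells stood at 9.00, 10.66, 8.84 (6 h), 8.86, 10.23, 8.55 (12 h) and 9.75, 10.27, 9.19 (24 h). For MCM6 the log2 change was -3.26, -2.49 and -2.01 in KO cells and -3.00, -3.18 and -3.34 in WT cells at 6, 12 and 24 h, each called whichever library was left out. Within stimulated KO cells MCM6 was higher at 24 h than at 6 h by 1.51 ± 0.51 (adjusted p = 0.0274), beside 14.5% of all genes called higher in that comparison. This call was lost without KO stimulated 6 h replicate 2 (1.13), the library of lowest correlation, without KO stimulated 24 h replicate 1 (1.42) and without KO stimulated 24 h replicate 2 (1.31).

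MCM2, also in the ring, had log2 levels of 6.92, 6.71, 6.63 (6 h), 7.24, 7.11, 6.97 (12 h) and 7.26, 6.70, 6.86 (24 h) in stimulated KO cells and 6.66, 7.04, 5.90 (6 h), 6.65, 6.49, 6.46 (12 h) and 6.65, 6.52, 5.24 (24 h) in stimulated WT cells. The KO levels lay above the WT levels at 12 h and at 24 h. MCM2 in vehicle KO cells stood at 9.19, 9.35, 8.43 (6 h), 9.11, 9.50, 8.14 (12 h) and 8.84, 9.57, 8.01 (24 h). MCM2 in vehicle WT cells stood at 8.70, 10.37, 8.43 (6 h), 8.42, 9.85, 8.04 (12 h) and 9.33, 10.06, 8.64 (24 h). Here too replicate 2 was the highest library in 6 of 6 vehicle groups. MCM2 was called lower in stimulated cells in all 6 comparisons, with log2 changes of -2.24, -1.81 and -1.87 in KO cells and -2.63, -2.24 and -3.21 in WT cells. MCM3, MCM4 and MCM7 of the same ring and CDT1, which loads it with CDC6, were called lower in all 6 comparisons, with log2 changes from -1.70 (MCM7, KO, 6 h) to -3.73 (MCM4, WT, 24 h).

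Of the 4 origin firing genes, GINS2 and MCM10 were called lower in all 6 comparisons, whereas CDC45, the helicase cofactor, and GINS1 were not called at 6 h in either genotype. CDC45 changed by -0.82, -1.86 and -2.67 in KO cells and by -1.05, -1.94 and -3.50 in WT cells.

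GINS2, a subunit of the GINS complex, had log2 levels of 4.97, 5.23, 4.68 (6 h), 4.71, 4.19, 4.39 (12 h) and 4.25, 3.14, 4.54 (24 h) in stimulated KO cells. GINS2 levels in stimulated WT cells were 4.73, 5.14, 5.19 (6 h), 4.21, 3.65, 4.74 (12 h) and 5.02, 2.69, 4.23 (24 h). Every one of these was under every vehicle level. GINS2 in vehicle KO cells stood at 7.33, 7.87, 6.63 (6 h), 6.96, 7.91, 6.24 (12 h) and 6.87, 7.86, 6.30 (24 h). GINS2 in vehicle WT cells stood at 6.76, 8.76, 7.03 (6 h), 6.71, 8.35, 6.47 (12 h) and 7.62, 8.42, 8.11 (24 h). Replicate 2 was again the highest library in 6 of 6 vehicle groups. For GINS2 the log2 change was -2.32, -2.61 and -3.03 in KO cells (adjusted p = 0.00183, 0.00065 and 0.000103) and -2.50, -2.98 and -4.07 in WT cells (adjusted p = 0.000987, 0.000147 and 1.44e-06).

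GINS1, of the same complex, had log2 levels of 5.73, 3.03, 5.27 (6 h), 5.08, 3.88, 4.74 (12 h) and 3.60, 2.84, 3.52 (24 h) in stimulated KO cells. GINS1 levels in stimulated WT cells were 5.01, 5.14, 3.88 (6 h), 4.73, 3.72, 3.84 (12 h) and 3.64, 2.41, 2.73 (24 h). In each stimulated arm replicate 2 at 24 h was the lowest of the 9 libraries. GINS1 in vehicle KO cells stood at 5.94, 4.44, 5.26 (6 h), 5.66, 6.20, 5.16 (12 h) and 5.73, 6.70, 4.86 (24 h). GINS1 in vehicle WT cells stood at 5.89, 6.61, 5.37 (6 h), 5.78, 6.47, 5.09 (12 h) and 5.95, 7.07, 5.15 (24 h). Stimulated and vehicle levels overlapped in KO cells at 6 h alone of the 6 pairs of groups. For GINS1 the log2 change was -0.54 ± 0.61, -1.11 ± 0.61 and -2.44 ± 0.61 in KO cells (adjusted p = 0.516, 0.162 and 0.00192) and -1.28 ± 0.61, -1.68 ± 0.61 and -3.13 ± 0.61 in WT cells (adjusted p = 0.1, 0.0287 and 0.000117). GINS1 lost its 12 h call in WT cells without stimulated replicates 2 or 3 or vehicle replicates 1 or 2 (-1.68 to -1.34).

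MCM10, which bridges the helicase and the polymerase, had log2 levels of 3.45, 1.98, 2.93 (6 h), 3.10, 2.53, 2.74 (12 h) and 2.29, 1.71, 2.59 (24 h) in stimulated KO cells. MCM10 levels in stimulated WT cells were 4.05, 4.53, 3.13 (6 h), 3.82, 2.11, 3.18 (12 h) and 3.48, 1.77, 2.59 (24 h). Several stimulated levels were below log2(10), the filter level of 3.32. MCM10 in vehicle KO cells stood at 5.05, 4.70, 4.14 (6 h), 4.90, 5.89, 4.42 (12 h) and 4.77, 6.12, 4.11 (24 h). MCM10 in vehicle WT cells stood at 5.28, 7.14, 5.30 (6 h), 5.21, 6.57, 5.00 (12 h) and 6.08, 6.88, 5.80 (24 h). Replicate 2 was the highest library in 5 of 6 vehicle groups, all but KO at 6 h. Its log2 change was -1.84, -2.28 and -2.81 in KO cells and -2.0, -2.56 and -3.64 in WT cells, each called. MCM10 lost its 6 h call in KO cells without stimulated replicate 2 or vehicle replicate 1 (-1.63 to -1.44) and in WT cells without stimulated replicate 3 or vehicle replicate 2 (-1.62 to -1.39).

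Of the 7 replication fork genes 5, 6 and 7 were called lower in KO cells at 6, 12 and 24 h, and 4, 5 and 7 in WT cells. PCNA, the sliding clamp that holds polymerases on DNA, changed most on average, and RFC2, a subunit of the clamp loader, least.

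PCNA had log2 levels of 5.77, 5.78, 5.75 (6 h), 5.71, 5.35, 5.65 (12 h) and 5.46, 4.40, 5.99 (24 h) in stimulated KO cells. PCNA levels in stimulated WT cells were 6.09, 6.30, 6.85 (6 h), 5.88, 4.97, 6.35 (12 h) and 5.54, 4.67, 5.98 (24 h). The 18 stimulated levels ended at 6.85 and the 18 vehicle levels began at 7.17, so they did not overlap. PCNA in vehicle KO cells stood at 7.62, 8.08, 7.76 (6 h), 7.64, 8.00, 7.31 (12 h) and 7.28, 8.29, 7.17 (24 h). PCNA in vehicle WT cells stood at 7.70, 8.71, 8.22 (6 h), 7.44, 8.48, 7.59 (12 h) and 7.90, 8.94, 8.56 (24 h). In 6 of 6 vehicle groups replicate 2 held the highest PCNA level. For PCNA the log2 change was -2.05 ± 0.40, -2.08 ± 0.40 and -2.29 ± 0.40 in KO cells (adjusted p = 0.000181, 0.00018 and 4.62e-05) and -1.80 ± 0.40, -2.10 ± 0.40 and -3.07 ± 0.40 in WT cells (adjusted p = 0.000871, 0.000156 and 5.65e-07).

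RFC2 had log2 levels of 7.22, 7.04, 7.17 (6 h), 6.40, 5.44, 6.31 (12 h) and 6.09, 5.34, 6.00 (24 h) in stimulated KO cells. RFC2 levels in stimulated WT cells were 6.82, 6.54, 7.12 (6 h), 6.25, 5.55, 6.21 (12 h) and 5.53, 5.55, 5.19 (24 h). The 6 h levels of both genotypes overlapped their vehicle levels. RFC2 in vehicle KO cells stood at 6.93, 7.27, 6.79 (6 h), 6.98, 7.13, 6.72 (12 h) and 6.70, 7.35, 6.53 (24 h). RFC2 in vehicle WT cells stood at 6.61, 7.45, 7.32 (6 h), 6.58, 7.33, 6.71 (12 h) and 6.99, 7.68, 7.34 (24 h). At 12 and 24 h all stimulated levels were under those of the matching vehicle group. For RFC2 the log2 change was 0.15 ± 0.29, -0.89 ± 0.29 and -1.05 ± 0.29 in KO cells (adjusted p = 0.724, 0.0179 and 0.00509) and -0.30 ± 0.29, -0.87 ± 0.29 and -1.91 ± 0.29 in WT cells (adjusted p = 0.459, 0.0198 and 5.55e-06). RFC2 lost its 12 h call in KO cells without stimulated replicate 2 or vehicle replicate 2 (-0.80 to -0.59) and in WT cells without stimulated replicate 2 or vehicle replicate 2 (-0.64). RFC2 lost its 24 h call in KO cells without stimulated replicate 2 or vehicle replicate 2 (-0.82 to -0.81).

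RFC3, of the same clamp loader, had log2 levels of 5.07, 3.41, 5.46 (6 h), 5.64, 4.22, 5.21 (12 h) and 5.09, 3.72, 4.75 (24 h) in stimulated KO cells. RFC3 levels in stimulated WT cells were 5.79, 5.49, 5.52 (6 h), 5.34, 4.33, 4.55 (12 h) and 5.37, 4.14, 3.83 (24 h). No stimulated level reached a vehicle level. RFC3 in vehicle KO cells stood at 6.70, 5.97, 6.30 (6 h), 6.66, 7.09, 6.29 (12 h) and 6.87, 7.57, 5.87 (24 h). RFC3 in vehicle WT cells stood at 7.18, 7.54, 7.23 (6 h), 6.97, 7.37, 6.84 (12 h) and 7.51, 8.12, 7.20 (24 h). Replicate 2 was the highest vehicle library in 5 of 6 groups and the lowest in KO cells at 6 h. It was called lower in all 6 comparisons, with log2 changes of -1.68, -1.65 and -2.25 in KO cells and -1.72, -2.32 and -3.16 in WT cells. RFC3 lost its 6 h call in KO cells without stimulated replicate 2 (-1.06). RFC3 lost its 12 h call in KO cells without stimulated replicate 2 (-1.25). RFC4 and PRIM1, a primase subunit, were called lower in all 6 comparisons, from -1.62 (PRIM1, KO, 12 h) to -2.42 (PRIM1, WT, 24 h). The polymerase genes POLA1 (-0.96, -1.43 and -2.01 in KO and -1.03, -1.62 and -3.19 in WT cells) and POLE (-1.48, -1.54 and -1.97 in KO and -0.98, -1.26 and -2.06 in WT cells) had their largest changes at 24 h. POLA1 was called at 24 h only in both genotypes, and POLE in KO cells at all 3 times and in WT cells at 24 h.

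The genes of nucleotide supply had the largest median change of any role at 24 h in both genotypes. Their median log2 change was -1.52, -2.59 and -3.49 at 6, 12 and 24 h in KO cells and -1.49, -2.10 and -3.93 in WT cells. TYMS, which makes thymidylate, had the largest 24 h change of all 44 genes in both genotypes.

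TYMS had log2 levels of 8.37, 7.58, 7.95 (6 h), 7.34, 6.04, 6.84 (12 h) and 6.15, 4.75, 5.88 (24 h) in stimulated KO cells. TYMS levels in stimulated WT cells were 8.25, 8.32, 8.00 (6 h), 7.62, 5.69, 7.29 (12 h) and 6.76, 4.50, 6.70 (24 h). In both arms the levels stepped down at each time, and no 24 h level reached a 6 h level. TYMS in vehicle KO cells stood at 9.98, 9.28, 9.64 (6 h), 10.09, 9.99, 9.55 (12 h) and 9.82, 10.80, 9.20 (24 h). TYMS in vehicle WT cells stood at 9.40, 10.30, 9.70 (6 h), 9.36, 10.05, 9.32 (12 h) and 9.87, 11.01, 9.96 (24 h). The vehicle levels showed no such step. For TYMS the log2 change was -1.67 ± 0.52, -3.14 ± 0.52 and -4.34 ± 0.52 in KO cells (adjusted p = 0.0116, 2.22e-05 and 1.18e-07) and -1.61 ± 0.52, -2.71 ± 0.52 and -4.30 ± 0.52 in WT cells (adjusted p = 0.0157, 0.000147 and 1.34e-07). At 24 h it was 20.3-fold lower in stimulated KO cells and 19.6-fold lower in stimulated WT cells. TYMS lost its 6 h call in KO cells without vehicle replicate 1 (-1.50) and in WT cells without stimulated replicate 3 or vehicle replicate 2 (-1.52 to -1.36).

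RRM1, the large subunit of ribonucleotide reductase, had log2 levels of 7.16, 4.85, 6.93 (6 h), 7.12, 6.34, 6.90 (12 h) and 6.34, 5.36, 6.04 (24 h) in stimulated KO cells. RRM1 levels in stimulated WT cells were 7.03, 7.43, 6.59 (6 h), 6.88, 6.19, 6.42 (12 h) and 6.06, 5.65, 4.56 (24 h). All were below every vehicle level. RRM1 in vehicle KO cells stood at 8.61, 7.64, 8.00 (6 h), 8.68, 8.66, 8.03 (12 h) and 8.37, 9.35, 7.71 (24 h). RRM1 in vehicle WT cells stood at 8.26, 8.97, 8.01 (6 h), 8.13, 8.76, 7.69 (12 h) and 8.28, 9.42, 7.86 (24 h). In KO cells at 6 h replicate 2 was the lowest library, both stimulated and vehicle. RRM1 changed by -1.77, -1.67 and -2.56 in KO cells and by -1.40, -1.70 and -3.10 in WT cells, each called. RRM1 lost its 6 h call in KO cells without stimulated replicate 2 (-1.04) and in WT cells without stimulated replicates 1 or 3 or vehicle replicates 1 or 2 (-1.47 to -1.12). RRM1 lost its 12 h call in KO cells without stimulated replicate 2 (-1.45) and in WT cells without vehicle replicate 2 (-1.41). RRM2, the small subunit, changed by -1.37, -2.63 and -3.62 in KO and -1.18, -1.99 and -4.04 in WT cells, and TK1, which salvages thymidine, by -0.99, -2.55 and -3.37 and -1.59, -2.20 and -3.83. RRM2 was not called at 6 h, and TK1 was not called at 6 h in KO cells.

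Among the G1/S regulators E2F1 changed most of all 44 genes on average and CDK2 least. E2F1, the activator of replication genes, had log2 levels of 4.95, 4.85, 3.98 (6 h), 4.25, 3.29, 3.59 (12 h) and 3.82, 2.46, 3.37 (24 h) in stimulated KO cells. E2F1 levels in stimulated WT cells were 4.96, 4.84, 5.06 (6 h), 3.58, 3.20, 3.74 (12 h) and 4.30, 2.62, 3.85 (24 h). The stimulated levels ended at 5.06 and the vehicle levels began at 6.06. E2F1 in vehicle KO cells stood at 7.12, 7.79, 6.47 (6 h), 7.15, 7.53, 6.23 (12 h) and 6.72, 7.49, 6.06 (24 h). E2F1 in vehicle WT cells stood at 6.87, 8.36, 6.77 (6 h), 6.36, 7.65, 6.16 (12 h) and 7.38, 7.90, 7.26 (24 h). Its vehicle levels were highest in replicate 2 in 6 of 6 groups. For E2F1 the log2 change was -2.53 ± 0.50, -3.26 ± 0.50 and -3.54 ± 0.50 in KO cells (adjusted p = 0.000161, 6.37e-06 and 1.57e-06) and -2.38 ± 0.50, -3.22 ± 0.50 and -3.92 ± 0.50 in WT cells (adjusted p = 0.00037, 8.3e-06 and 2.71e-07).

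CDK2, the kinase partner of cyclins E and A, had log2 levels of 7.08, 5.75, 7.13 (6 h), 6.48, 6.36, 6.65 (12 h) and 6.37, 6.18, 6.44 (24 h) in stimulated KO cells. CDK2 levels in stimulated WT cells were 7.26, 6.84, 6.90 (6 h), 7.74, 6.74, 7.13 (12 h) and 7.23, 6.76, 7.06 (24 h). At 12 and 24 h all 3 KO levels were under all 3 WT levels. CDK2 in vehicle KO cells stood at 7.34, 7.00, 7.19 (6 h), 7.56, 7.59, 6.99 (12 h) and 6.95, 7.82, 6.72 (24 h). CDK2 in vehicle WT cells stood at 6.92, 7.80, 7.19 (6 h), 7.00, 7.60, 6.74 (12 h) and 7.27, 8.06, 7.02 (24 h). Stimulated and vehicle levels overlapped at all 3 times in WT cells and at 6 h in KO cells. CDK2 changed by -0.52 ± 0.34, -0.89 ± 0.34 and -0.84 ± 0.34 in KO cells (adjusted p = 0.238, 0.0431 and 0.052) and by -0.30 ± 0.34, 0.08 ± 0.34 and -0.44 ± 0.34 in WT cells (adjusted p = 0.531, 0.867 and 0.308). CDK2 lost its 12 h call in KO cells without stimulated replicates 1, 2 or 3 or vehicle replicates 1 or 2 (-0.96 to -0.78). CDK2 gained a 24 h call in KO cells without vehicle replicate 3 (-1.06).

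The cyclin E genes, whose products bind CDK2, did fall. CCNE1 changed by -1.08, -1.78 and -2.55 in KO and -1.34, -1.51 and -2.83 in WT cells, each called, and CCNE2 by -1.51, -2.74 and -3.00 and -1.61, -2.76 and -4.16, called at 12 and 24 h. E2F2, an activator E2F as well, was called in all 6 comparisons, with log2 changes of -2.55, -3.19 and -2.08 in KO and -2.45, -2.66 and -3.22 in WT cells.

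**Figure D2:**
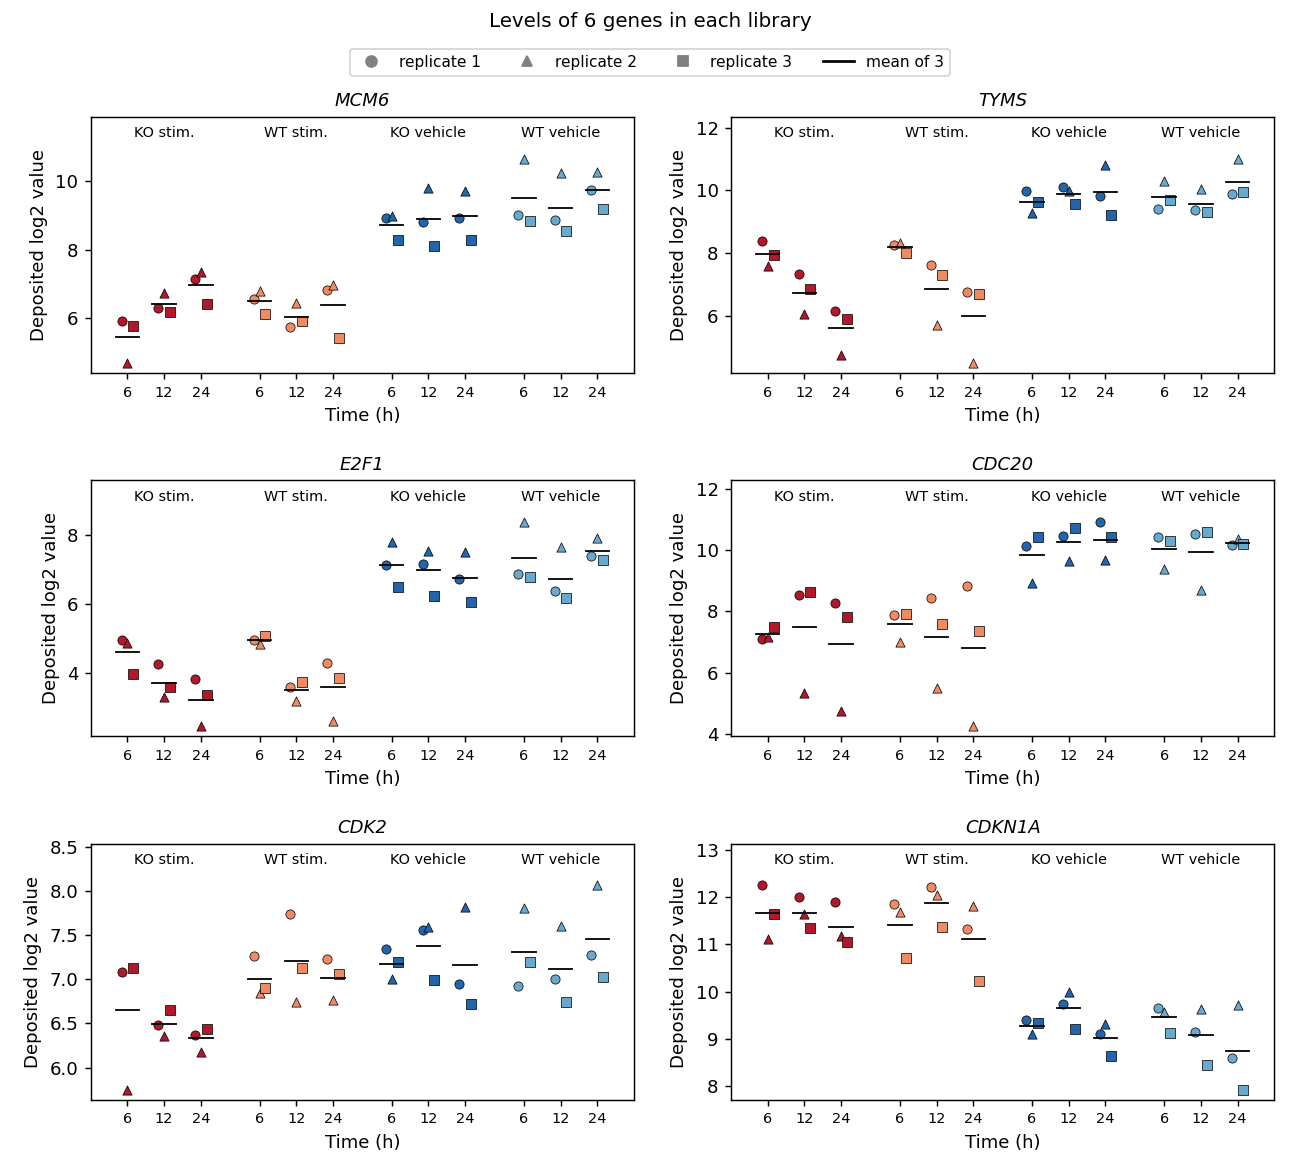
Deposited log2 levels of MCM6, TYMS, E2F1, CDC20, CDK2 and CDKN1A in each of the 36 libraries, by arm and time (h), with replicates 1, 2 and 3 as circles, triangles and squares and a bar at the mean of each group of 3. MCM6 is low at 6 h already, TYMS steps down from 6 to 24 h, replicate 2 of CDC20 is at 4.25 to 5.49 in stimulated cells at 12 and 24 h, and the CDK2 levels of stimulated and vehicle cells overlap at all times in WT cells and at 6 h in KO cells.

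All 15 mitotic genes had a negative change in all 6 comparisons. CDC20, which activates the anaphase-promoting complex, changed most of the 11 mitotic regulators and AURKA, a spindle pole kinase, least.

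CDC20 had log2 levels of 7.11, 7.17, 7.49 (6 h), 8.55, 5.32, 8.63 (12 h) and 8.28, 4.74, 7.82 (24 h) in stimulated KO cells. CDC20 levels in stimulated WT cells were 7.88, 6.99, 7.91 (6 h), 8.43, 5.49, 7.60 (12 h) and 8.84, 4.25, 7.35 (24 h). At 12 and 24 h the replicate 2 library lay more than 2 log2 units under each of the others in its group in both genotypes. CDC20 in vehicle KO cells stood at 10.14, 8.92, 10.43 (6 h), 10.45, 9.66, 10.74 (12 h) and 10.92, 9.68, 10.44 (24 h). CDC20 in vehicle WT cells stood at 10.43, 9.38, 10.30 (6 h), 10.53, 8.71, 10.59 (12 h) and 10.17, 10.37, 10.20 (24 h). No stimulated group overlapped its own vehicle group. For CDC20 the log2 change was -2.57 ± 0.93, -2.78 ± 0.93 and -3.40 ± 0.93 in KO cells (adjusted p = 0.0287, 0.0199 and 0.0044) and -2.45 ± 0.93, -2.77 ± 0.93 and -3.43 ± 0.93 in WT cells (adjusted p = 0.0398, 0.0192 and 0.00336). CDC20 lost its 6 h call in KO cells without stimulated replicates 1 or 2 or vehicle replicates 1 or 3 (-2.53 to -2.27) and in WT cells without stimulated replicates 1, 2 or 3 or vehicle replicates 1 or 3 (-2.60 to -2.14). CDC20 lost its 12 h call in KO cells without stimulated replicate 2 or vehicle replicates 1 or 3 (-2.70 to -1.70) and in WT cells without stimulated replicate 2 or vehicle replicates 1 or 3 (-2.48 to -1.93). CDC20 lost its 24 h call in KO cells without stimulated replicate 2 (-2.30) and in WT cells without stimulated replicate 2 (-2.15).

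AURKA had log2 levels of 4.20, 3.36, 4.44 (6 h), 5.51, 4.70, 5.50 (12 h) and 5.61, 4.16, 5.07 (24 h) in stimulated KO cells. AURKA levels in stimulated WT cells were 5.30, 4.79, 5.67 (6 h), 5.84, 4.83, 5.27 (12 h) and 5.90, 4.85, 4.66 (24 h). At 6 h the KO levels were all below the WT levels. AURKA in vehicle KO cells stood at 6.27, 5.41, 6.39 (6 h), 6.50, 6.03, 6.73 (12 h) and 6.68, 6.16, 6.43 (24 h). AURKA in vehicle WT cells stood at 7.15, 6.24, 6.99 (6 h), 6.93, 5.85, 6.78 (12 h) and 6.26, 6.80, 6.22 (24 h). Each stimulated group lay below its own vehicle group in 6 of 6 pairs. For AURKA the log2 change was -2.02 ± 0.41, -1.18 ± 0.41 and -1.48 ± 0.41 in KO cells (adjusted p = 0.000229, 0.0242 and 0.00472) and -1.54 ± 0.41, -1.21 ± 0.41 and -1.30 ± 0.41 in WT cells (adjusted p = 0.00384, 0.02 and 0.0104). AURKA lost its 12 h call in KO cells without stimulated replicate 2 or vehicle replicates 1 or 3 (-1.14 to -0.91) and in WT cells without stimulated replicates 2 or 3 or vehicle replicates 1 or 3 (-1.18 to -0.96). AURKA lost its 24 h call in KO cells without stimulated replicate 2 (-1.09) and in WT cells without stimulated replicate 3 or vehicle replicate 2 (-1.11 to -1.06).

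AURKB, the kinase of the chromosomal passenger complex, had log2 levels of 3.88, 4.47, 3.61 (6 h), 4.21, 2.17, 3.36 (12 h) and 3.17, 2.06, 2.65 (24 h) in stimulated KO cells. AURKB levels in stimulated WT cells were 4.41, 4.65, 4.59 (6 h), 4.24, 2.54, 3.62 (12 h) and 4.24, 1.69, 4.05 (24 h). Its levels overlapped those of vehicle cells in KO cells at 6 h and in no other pair of groups. AURKB in vehicle KO cells stood at 4.99, 4.25, 5.60 (6 h), 5.24, 4.47, 5.10 (12 h) and 4.94, 5.46, 4.49 (24 h). AURKB in vehicle WT cells stood at 5.45, 5.48, 6.22 (6 h), 5.50, 5.23, 5.70 (12 h) and 5.24, 6.42, 6.11 (24 h). AURKB changed by -0.96, -1.69 and -2.34 in KO cells and -1.17, -2.01 and -2.60 in WT cells, called at 12 and 24 h. AURKB lost its 12 h call in KO cells without stimulated replicate 2 or vehicle replicates 1 or 3 (-1.61 to -1.15).

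CDK1, the kinase that starts mitosis, had log2 levels of 5.81, 4.86, 5.80 (6 h), 5.77, 4.09, 5.84 (12 h) and 4.88, 3.22, 4.62 (24 h) in stimulated KO cells. CDK1 levels in stimulated WT cells were 6.58, 6.39, 6.72 (6 h), 6.55, 4.56, 6.25 (12 h) and 5.99, 3.62, 5.06 (24 h). At 6 h all 3 KO levels were below all 3 WT levels, among stimulated and among vehicle cells. CDK1 in vehicle KO cells stood at 7.42, 6.16, 7.65 (6 h), 7.49, 6.92, 7.51 (12 h) and 7.22, 7.70, 7.00 (24 h). CDK1 in vehicle WT cells stood at 7.84, 7.69, 8.27 (6 h), 7.71, 7.42, 7.69 (12 h) and 7.49, 8.49, 7.72 (24 h). No stimulated group overlapped its own vehicle group. CDK1 was called lower in all 6 comparisons, with log2 changes of -1.59, -2.08 and -3.06 in KO cells and -1.37, -1.82 and -3.01 in WT cells. CDK1 lost its 6 h call in KO cells without stimulated replicate 2 or vehicle replicates 1 or 3 (-1.42 to -1.28) and in WT cells without stimulated replicates 1, 2 or 3 or vehicle replicates 1, 2 or 3 (-1.49 to -1.20). CDK1 lost its 12 h call in WT cells without stimulated replicate 2 (-1.20).

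The cyclins that bind CDK1 fell as well. CCNA2 was called in all 6 comparisons, with log2 changes of -1.97, -2.12 and -3.12 in KO and -1.71, -2.02 and -3.13 in WT cells, while CCNB1 was called at 24 h only (-2.75 in KO and -2.45 in WT cells), and CCNB2 in 5 of 6, all but WT at 6 h (-1.58). BUB1B of the spindle checkpoint was called in all 6 and had the largest mitotic change, -3.94, in WT cells at 24 h. BUB1, its partner, PLK1, a kinase of mitotic entry, and FOXM1, the transcription factor of mitotic genes, were called at 24 h in both genotypes, with changes from -2.44 (PLK1, KO) to -3.04 (BUB1, WT). PLK1 was also called at 6 h and FOXM1 at 12 h in both genotypes. BUB1 was also called at 6 h in KO cells and at 12 h in WT cells. Of these genes, each call at 6 or 12 h was lost in 1 or more fits without 1 library, except those of BUB1B in WT cells.

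CENPF, a kinetochore protein, had the largest mean change of the 4 genes of mitotic structure and proliferation. CENPF had log2 levels of 5.24, 5.35, 5.53 (6 h), 6.52, 4.10, 6.33 (12 h) and 6.14, 3.71, 5.46 (24 h) in stimulated KO cells. CENPF levels in stimulated WT cells were 5.93, 5.58, 6.10 (6 h), 6.43, 4.16, 6.07 (12 h) and 6.62, 3.24, 6.17 (24 h). Their highest, 6.62, lay just under the lowest vehicle level, 6.63. CENPF in vehicle KO cells stood at 8.81, 6.63, 8.59 (6 h), 8.22, 7.52, 8.49 (12 h) and 8.83, 7.89, 8.07 (24 h). CENPF in vehicle WT cells stood at 8.33, 7.46, 8.39 (6 h), 8.03, 6.79, 8.23 (12 h) and 8.01, 8.47, 7.99 (24 h). Replicate 2 was the lowest library in 10 of 12 groups. CENPF changed by -2.64 ± 0.74, -2.42 ± 0.74 and -3.16 ± 0.74 in KO cells (adjusted p = 0.00523, 0.0108 and 0.00105) and -2.19 ± 0.74, -2.13 ± 0.74 and -2.81 ± 0.74 in WT cells (adjusted p = 0.0201, 0.0227 and 0.00253). CENPF lost its 6 h call in WT cells without stimulated replicate 2 or vehicle replicates 1 or 3 (-2.06 to -2.03). CENPF lost its 12 h call in KO cells without stimulated replicate 2 (-1.65) and in WT cells without stimulated replicate 2 or vehicle replicates 1 or 3 (-1.95 to -1.43).

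MKI67, the gene of the Ki-67 antigen, varied widely between replicates. MKI67 had log2 levels of 5.25, 2.11, 4.26 (6 h), 5.35, 3.00, 4.69 (12 h) and 4.97, 2.90, 3.76 (24 h) in stimulated KO cells. MKI67 levels in stimulated WT cells were 5.99, 5.99, 3.67 (6 h), 6.38, 3.51, 4.64 (12 h) and 5.49, 2.67, 3.21 (24 h). MKI67 in vehicle KO cells stood at 7.35, 2.91, 5.67 (6 h), 6.52, 6.42, 6.15 (12 h) and 7.23, 7.34, 5.83 (24 h). The 6 h vehicle KO group alone spanned 2.91 to 7.35. MKI67 in vehicle WT cells stood at 7.37, 6.88, 5.96 (6 h), 6.84, 6.57, 5.98 (12 h) and 7.11, 8.23, 4.96 (24 h). Stimulated and vehicle levels overlapped at all 3 times in WT cells and at 6 h in KO cells. For MKI67 the log2 change was -1.44 ± 0.99, -2.02 ± 0.99 and -2.93 ± 0.99 in KO cells (adjusted p = 0.265, 0.117 and 0.0197) and -1.52 ± 0.99, -1.62 ± 0.99 and -2.98 ± 0.99 in WT cells (adjusted p = 0.243, 0.204 and 0.015). MKI67 lost its 24 h call in KO cells without stimulated replicate 2 or vehicle replicates 1 or 2 (-2.71 to -2.44) and in WT cells without stimulated replicates 2 or 3 or vehicle replicate 2 (-2.69 to -2.24). MKI67 gained a 6 h call in KO cells without vehicle replicate 2 (-2.64). TOP2A, which untangles chromosomes, changed by -2.15, -2.11 and -3.36 in KO and -1.87, -2.17 and -3.42 in WT cells, called in all but WT at 6 h, and BIRC5, survivin, by -1.73, -2.33 and -2.88 and -1.93, -2.55 and -2.96, called in all 6. In 1 or more fits without 1 library TOP2A lost its 6 h call in KO cells and its 12 h calls in both genotypes.

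CDKN1A rose where the cycle genes fell. CDKN1A had log2 levels of 12.25, 11.11, 11.65 (6 h), 12.00, 11.64, 11.35 (12 h) and 11.90, 11.18, 11.05 (24 h) in stimulated KO cells. CDKN1A levels in stimulated WT cells were 11.86, 11.68, 10.72 (6 h), 12.22, 12.05, 11.38 (12 h) and 11.33, 11.82, 10.22 (24 h). The lowest stimulated level, 10.22, lay above the highest vehicle level, 10.00. CDKN1A in vehicle KO cells stood at 9.39, 9.09, 9.33 (6 h), 9.74, 10.00, 9.20 (12 h) and 9.10, 9.31, 8.64 (24 h). CDKN1A in vehicle WT cells stood at 9.65, 9.57, 9.13 (6 h), 9.15, 9.62, 8.44 (12 h) and 8.59, 9.71, 7.92 (24 h). For CDKN1A the log2 change was 2.40 ± 0.41, 2.02 ± 0.41 and 2.36 ± 0.41 in KO cells (adjusted p = 3.44e-05, 0.000335 and 4.37e-05) and 1.96 ± 0.41, 2.81 ± 0.41 and 2.38 ± 0.41 in WT cells (adjusted p = 0.000434, 4.45e-06 and 3.12e-05), beside 16.2%, 15.5% and 17.3% of all genes called higher in KO cells and 15.1%, 16.8% and 20.2% in WT cells. The rise was 5.28-fold, 4.04-fold and 5.13-fold in KO cells and 3.90-fold, 7.00-fold and 5.21-fold in WT cells. It was called in all 6 comparisons whichever library was left out.

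Replicate 2 libraries differed from the others in the balance of S-phase and mitotic genes. The mean log2 level of the 15 mitotic genes minus that of the 28 S-phase genes was lowest in replicate 2 in 12 of 12 groups. Its value has no meaning by itself, since levels are not scaled by length, but it can be compared between libraries. It ran from -1.12 to -0.37 in the 6 stimulated and from -1.45 to -0.41 in the 6 vehicle libraries of replicate 2, against -0.30 to 0.71 in the 12 stimulated and -0.27 to 0.92 in the 12 vehicle libraries of replicates 1 and 3. The S-phase mean of vehicle cells was 7.39 to 8.73 in replicate 2, against 6.71 to 7.86 in replicates 1 and 3, ranges that overlap. MCM2, MCM5, MCM6, MCM7, CDC6 and PCNA, among others, were highest in replicate 2 in 6 of 6 vehicle groups, while the mitotic genes CCNB1, CCNB2 and PLK1 were lowest in replicate 2 in 11 of 12 groups. CCNB1 and CCNB2 were highest in it in 0 of 12. The labels name no batch, and what set replicate 2 apart was not tested.

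Stimulated minus vehicle within each replicate number, the mean change of the S-phase genes was negative in 18 of 18 sets. So was that of the mitotic genes, in 18 of 18. In both means every stimulated library lay below every vehicle library of its genotype and time, so any matching gives these counts. At 24 h the S-phase mean changed by -1.95, -3.77 and -1.61 in KO replicates 1, 2 and 3, and by -2.34, -4.17 and -2.95 in WT replicates. The mitotic mean changed by -2.18, -3.92 and -2.25 in KO and by -1.37, -4.88 and -2.37 in WT replicates. At 6 h the mitotic mean of replicate 2 changed less than those of the others, by -1.36 against -2.05 and -2.10 in KO cells and by -1.44 against -1.85 and -1.86 in WT cells. Replicate 2 thus had the largest S-phase fall at all 3 times in both genotypes, and the largest mitotic fall at 12 and 24 h. In KO cells at 24 h replicate numbers did not pair the libraries, so those sets are matched by number only. After group means were removed, the S-phase genes moved together across the 36 libraries (mean pairwise Pearson r = 0.671), and so did the mitotic genes (0.821), while S-phase with mitotic pairs had a mean r of 0.217. Over the 24 libraries of replicates 1 and 3 the 3 values were 0.558, 0.559 and 0.331. Deviations of replicates 1 and 3 are equal and opposite within a group, so those 24 libraries give 1 independent value per group. The S-phase mean and the mitotic mean had r = 0.293 over the 36 libraries and 0.697 over the 24. These r are descriptions, since genes of 1 library share that library.

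**Figure D3:**
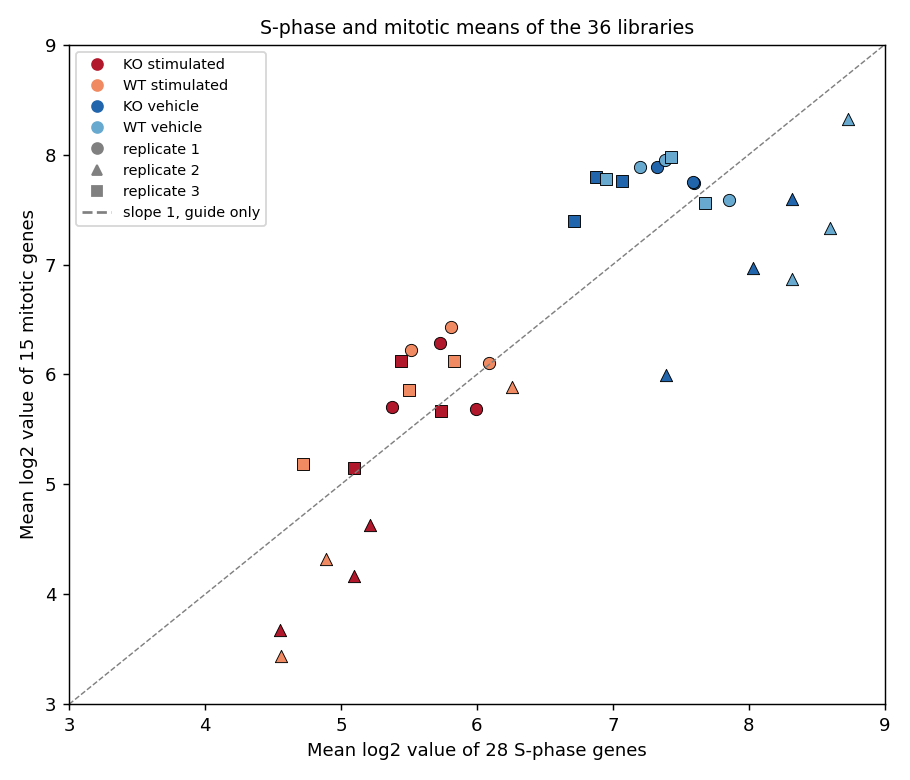
Mean log2 level of the 28 S-phase genes (x axis) and of the 15 mitotic genes (y axis) in each of the 36 libraries, coloured by arm, with replicates 1, 2 and 3 as circles, triangles and squares and a line of slope 1 as a guide only. Stimulated libraries lie lower left, and the 12 triangles of replicate 2 lie furthest below the guide line, with mitotic minus S-phase means of -1.45 to -0.37 against -0.30 to 0.92.

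Some S-phase genes went on falling between 6 and 24 h in stimulated cells, the nucleotide genes TYMS, TK1 and RRM2 among them. In KO cells 7 S-phase genes were called lower at 24 h than at 6 h and 1, MCM6, higher, with 0 mitotic genes, beside 13% of all genes called lower. In WT cells 10 S-phase and 2 mitotic genes, CDK1 and BUB1, were called lower, beside 12% of all genes. TYMS changed by -2.37 ± 0.52 in KO and -2.20 ± 0.52 in WT cells, TK1 by -2.29 ± 0.45 and -1.88 ± 0.45, CDC45 by -1.91 ± 0.56 and -1.99 ± 0.56, and RRM2 by -1.68 ± 0.58 and -2.47 ± 0.58, each called. MCM2 and PRIM1 had small changes over the same span, 0.19 ± 0.49 and 0.15 ± 0.40 in KO cells and -0.40 ± 0.49 and -0.23 ± 0.40 in WT cells, not called. The KO S-phase count was 4 without stimulated 6 h replicate 1, 24 h replicate 2 or 24 h replicate 3, and the WT S-phase count 6 without stimulated 6 h replicate 1 or 2. The WT mitotic count was 0 without stimulated 6 h replicate 1 or 3 or 24 h replicate 2, 1 without 6 h replicate 2 or 24 h replicate 3, and 6 without 24 h replicate 1. In WT cells, where the replicate numbers paired the libraries, 13 S-phase and 5 mitotic genes were called with replicate number as a block. In vehicle cells 0 of the 44 genes were called by limma between 24 and 6 h in either genotype (0 and 0 at an unadjusted p below 0.05), beside 0.834% of all genes in KO and 0.0895% in WT cells.

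The response at 24 h minus the response at 6 h was called lower for 2 of the 44 genes in KO cells. These were TYMS (-2.67 ± 0.73) and TK1 (-2.38 ± 0.64), beside 3.41% of all genes called lower. With so few called beside that share, nothing is read from the KO count. In WT cells this difference of responses was called lower for 6 S-phase genes, beside 5.26% of all genes. They were RRM2 (-2.86), TYMS (-2.68), CDC6 (-2.47), CDC45 (-2.44), TK1 (-2.24) and RFC2 (-1.61). These WT calls fell to 0 without WT vehicle 6 h replicate 1, 1 without WT vehicle 24 h replicate 2, 2 without WT stimulated 24 h replicate 2, and 3 without WT stimulated 6 h replicate 2 or 3 or WT vehicle 6 h replicate 3. The 2 KO calls were 0 without KO stimulated or KO vehicle 24 h replicate 2, and 1 without KO stimulated 6 h replicate 1 or KO vehicle 6 h replicate 2 or 3.

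None of the 44 genes was called between KO and WT cells at a single time. Among stimulated cells 0 of 44 were called by limma at 6, 12 or 24 h (2, 1 and 0 at an unadjusted p below 0.05), beside 8.71%, 3.45% and 5.87% of all genes. Among vehicle cells limma called 0 of 44 (2, 0 and 4 at an unadjusted p below 0.05), beside 8.19%, 5.24% and 3.98% of all genes. On the mean of the 3 times 1 gene was called in each, CDK2 in stimulated cells, beside 22.6% of all genes, and MCM10 in vehicle cells, beside 23.4% of all genes.

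CDK2 was lower in stimulated KO than in stimulated WT cells, with a log2 difference of -0.58 ± 0.20 on the mean of 3 times (adjusted p = 0.0333), with -0.34, -0.70 and -0.69 at 6, 12 and 24 h. The difference was -0.05 ± 0.20 among vehicle cells (adjusted p = 0.905). The call was lost without KO stimulated 6 h replicate 2 (-0.43), 12 h replicate 1 (-0.58) or 2 (-0.56) or 24 h replicate 2 (-0.55), and without WT stimulated 6 h replicate 1 (-0.54), 12 h replicate 1 (-0.49) or 24 h replicate 1 (-0.54). MCM10 was lower in vehicle KO than in vehicle WT cells, with a log2 difference of -1.02 ± 0.34 on the mean (adjusted p = 0.03), with -1.28, -0.52 and -1.25 at the 3 times, and its difference among stimulated cells was -0.60 ± 0.34 (adjusted p = 0.226). The call was lost in 8 of 18 fits without one vehicle library, where the difference ran from -0.99 to -0.81, namely KO 6 h replicate 3, 12 h replicates 1 and 3 and 24 h replicates 1 and 3, and WT replicate 2 at each time. The next smallest p-values on the mean of 3 times were those of CDK1 (-0.76 ± 0.31, adjusted p = 0.0806) and AURKA (-0.51 ± 0.24, adjusted p = 0.123) in stimulated cells, and of RFC3 (-0.74 ± 0.28, adjusted p = 0.0534) and MCM5 (-0.58 ± 0.22, adjusted p = 0.0592) in vehicle cells, none called. Among vehicle cells 28 of 28 S-phase genes had a lower mean in KO cells at 24 h and 27 of 28 at 6 h, with a median difference of -0.65 and -0.44, and 14 of 28 at 12 h. Over all genes the median difference was -0.02 at 24 h and -0.05 at 6 h. The S-phase means of single libraries overlapped at 24 h, from 6.711 to 8.319 in vehicle KO and from 7.675 to 8.733 in vehicle WT cells. These genes share libraries, so the counts of lower means are not counts of independent results.

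Single libraries also added calls. CDK1 was called lower in stimulated KO cells on the mean without WT stimulated 12 h replicate 2 (-0.96) or 24 h replicate 2 (-0.97), the second of which also brought in AURKB (-0.77), and AURKA was called at 6 h without KO stimulated 6 h replicate 3 (-1.48). MCM5 was called lower in vehicle KO cells on the mean without KO replicate 2 at 6, 12 or 24 h, WT 6 h replicate 1, or WT 12 h replicate 1 or 3 (-0.68 to -0.64). RFC3 was called without KO 6 h replicate 1, KO 12 or 24 h replicate 2 or WT 24 h replicate 3 (-0.87 to -0.80), and CDC6 without KO 24 h replicate 2 (-0.82). The share of all genes called without all 12 replicate 2 libraries is not given here. With all libraries it was 22.6% on the stimulated mean and 23.4% on the vehicle mean. Nothing is therefore read from the count without replicate 2, which was 9 genes in each mean. In stimulated cells these were CDK2, CDK1 (-0.74), CDC6 (-0.58), TK1 (-0.43), CCNA2 (-0.58), CCNB1 (-0.47) and AURKB (-0.71), lower in KO cells, and MCM2 (0.72) and BUB1B (0.75), higher. In vehicle cells all 9 were lower in KO cells, namely MCM10, MCM5 (-0.50), CDC6 (-0.58), RFC3 (-0.71), RFC4 (-0.43), TK1 (-0.44), CDK1 (-0.40), AURKB (-0.64) and FOXM1 (-0.40).

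In the same libraries 7 of 16 macrophage markers were called lower and 1 higher in stimulated KO than in stimulated WT cells on the mean of 3 times, and 8 were called lower and 1 higher in vehicle KO cells, beside the 22.6% and 23.4% of all genes called in either direction. Of 15 myeloid precursor markers, 5 were called higher and 3 lower in stimulated KO cells, and 9 higher and 1 lower in vehicle KO cells. The part of these in the differences above was not tested.

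In the fit without a replicate block, no response of the 44 genes was called different between the genotypes. The interaction, KO response minus WT response, was called by limma for 0 of 44 at 6, 12 and 24 h and on the mean (0, 0, 2 and 1 at an unadjusted p below 0.05), beside 0.452%, 0.16%, 0.433% and 6.24% of all genes. At 24 h it was positive, a smaller fall in KO cells, in 26 of 28 S-phase genes, with a median of 0.78 against 0.08 over all genes, and in 10 of 15 mitotic genes, with CCNB2 at 0.00 and a median of 0.05. The mean S-phase level at 24 h was 5.01 in stimulated KO and 4.93 in stimulated WT cells. Among vehicle cells it was 7.45 in KO and 8.09 in WT cells, so the genotypes lay further apart there than after stimulation. MCM5 (0.80 ± 0.32, adjusted p = 0.139), MCM2 (0.72 ± 0.40, adjusted p = 0.334) and GINS1 (0.67 ± 0.50, adjusted p = 0.505) had the largest interaction on the mean of 3 times. At 24 h MCM2 had 1.34 ± 0.70, MCM6 1.34 ± 0.72 and MCM5 1.25 ± 0.55 (adjusted p = 0.451, 0.471 and 0.343). Without all replicate 2 libraries 2 were called at 24 h, MCM5 (1.56) and RFC2 (1.23), and 3 on the mean, MCM5 (0.75), CDK2 (-0.63) and CENPF (-0.69). The shares of all genes called in that fit are not given here. The genes of a list share libraries, so the count of positive signs is not a count of independent results.

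**Figure D4:**
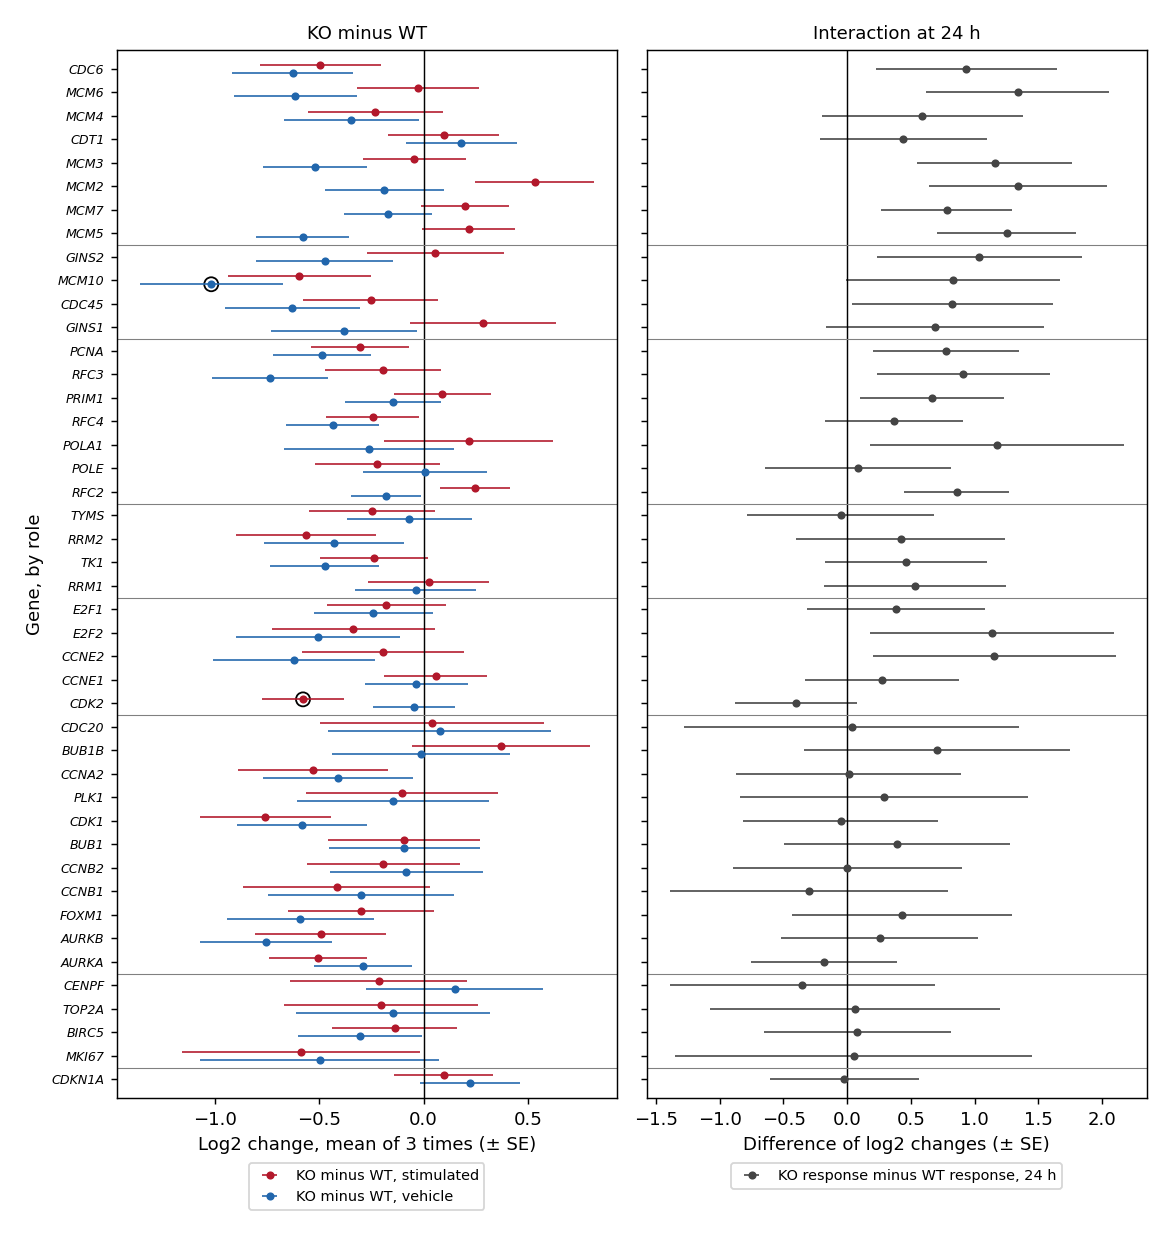
Left, log2 change KO minus WT on the mean of 3 times for each of the 44 genes, in stimulated (red) and vehicle (blue) cells, with rings at the 2 calls, CDK2 in stimulated and MCM10 in vehicle cells. Right, KO response minus WT response at 24 h, above 0 in 26 of 28 S-phase genes and called for none, with bars of ± 1 standard error in both panels.

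Genes of the same pathways outside the 44 also fell, and their counts stand against the 19.5% to 26.1% of all genes called lower across the 6 comparisons. Of 45 other replication genes 30, 33 and 35 were called lower at 6, 12 and 24 h in KO cells and 32, 35 and 40 in WT cells, and 0 higher. The largest mean changes were those of E2F8, a repressor E2F (-2.20, -3.48 and -3.60 in KO and -1.98, -3.35 and -3.84 in WT cells), UHRF1, which reads DNA methylation at forks (-2.83, -2.83 and -2.90 and -2.82, -3.06 and -3.80), and DSCC1, of the alternative clamp loader (-2.64, -2.64 and -3.44 and -2.34, -2.96 and -4.08). Of 49 other mitotic genes 36, 39 and 43 were called lower in KO and 25, 36 and 45 in WT cells, and at most 1 higher. The mitotic kinase gene NEK2 changed by -3.00, -2.75 and -3.51 in KO and -2.33, -2.62 and -3.02 in WT cells. Of 17 repair and checkpoint genes 8, 10 and 11 were called lower in KO and 7, 9 and 12 in WT cells, with the nuclease gene EXO1 at -2.55, -2.74 and -3.37 and -2.01, -2.46 and -3.40. Of 19 genes for D cyclins, the RB family and E2F partners 6, 3 and 5 were called lower and 1, 1 and 2 higher in KO cells, and 5, 5 and 5 lower and 1, 3 and 4 higher in WT cells. Over all genes 22.5%, 19.5% and 21.6% were called lower and 16.2%, 15.5% and 17.3% higher in KO cells, and 20.9%, 21.7% and 26.1% lower and 15.1%, 16.8% and 20.2% higher in WT cells, so nothing is read from the count of this list. The cyclin D1 gene CCND1 changed by 1.37, 2.12 and 2.03 in KO and 1.40, 2.05 and 2.98 in WT cells, called higher at 12 and 24 h, and the cyclin D2 gene CCND2 by 3.56, 0.00 and 0.85 and 3.82, 1.99 and 1.45, called higher at 6 h in KO cells and at all times in WT cells. RBL1, the RB family member p107, changed by -2.44, -1.31 and -1.61 and -2.0, -1.91 and -2.02, called lower at 6 h in KO cells and at all times in WT cells. Of the other CDK inhibitors CDKN1B, p27, was called higher at 24 h (1.02 ± 0.29 in KO and 1.43 ± 0.29 in WT cells), and CDKN2C, p18, was called lower at 12 and 24 h (-1.75 and -2.09 in KO, -1.55 and -2.11 in WT cells).

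CDKN1A is a target of p53, and 18 other p53 targets were called in both directions, with 4, 4 and 5 called higher and 4, 6 and 5 lower in KO cells, and 5, 5 and 4 higher and 4, 5 and 5 lower in WT cells. With 15.1% to 20.2% of all genes called higher and 19.5% to 26.1% lower in these comparisons, nothing is read from these counts either. The kinase gene PLK3 rose (2.72, 3.29 and 3.54 in KO and 2.94, 3.35 and 3.28 in WT cells), while SESN1, a sestrin gene (-3.26, -3.16 and -3.23 and -2.01, -1.97 and -1.86), and FDXR, ferredoxin reductase (-2.27, -2.56 and -2.43 and -2.10, -1.64 and -1.22), fell at all 3 times. In the same comparisons, and beside the same shares of all genes, the macrophage markers had at most 3 of 16 called higher and at most 8 lower. The myeloid precursor markers had 2, 4 and 11 of 15 called lower in KO cells and 1, 3 and 8 in WT cells, and at most 2 higher, and their part in the results above was not tested.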

How the data were processed

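RNA-seq of 36 THP-1 libraries was analysed from 1 table of log2 expression levels that the authors deposited, with 21599 gene rows. Per the submitters' processing notes, the tools were cutadapt 1.9.1 and GSNAP and the build was GRCh37.p5, with no role or order given. The counting tool, annotation, normalisation and offset behind the log2 values are not given in the sources used here, and fold changes of low genes depend on that offset.

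Genes at or above log2(10) = 3.32 in at least 3 libraries were kept, which left 21232 and removed 367. limma 3.58.1 (R 4.3.3) fitted 12 group means to all 36 libraries with a mean-variance trend (24 residual degrees of freedom, median prior degrees of freedom 4.45), with Benjamini-Hochberg adjustment over all genes in each comparison and calls at an adjusted p below 0.05. Python 3.11.15 made the tables, and the fit was tested on simulated data. Same-numbered libraries deviated together, each pair's correlation being over 0.1, in 12 of 16 pairs of groups (r from -0.15 to 0.59), and the labels give no origin for the numbers.

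Values are given for every library for the genes of each role with the largest and smallest mean response, for CDKN1A, E2F1, MKI67 and PCNA, and for the 3 largest KO against WT or interaction differences. MCM6 was added after its values were seen. The genes and the lists were chosen with earlier results of these data known. Promoters are from RefSeq on GRCh38.p14, a build other than that of the reads. Of list genes PRIM2, CDKN2A, CDKN2B, PROM1, EPCAM, COL1A2, CD3E, MS4A1 and HBB were not used here. Alternatives covered filters, a pseudocount of 5, scaling, library weights, the replicate block and left-out libraries.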

Additional observations from a re-analysis of the deposited data

Results flagged for a closer look

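The genes screened here were the listed genes outside the 44, without the macrophage, myeloid precursor and other cell type markers. The response to stimulation of 3 of them differed between the genotypes by the test of the difference itself. That difference is KO response minus WT response (limma, adjusted over all genes), and nothing is read from the count of 3. Over all genes 6.24% were called on the mean of 3 times and 0.452% at 6 h. PLK2, a p53 target and polo-like kinase, had a difference of -2.50 ± 0.63 on the mean of 3 times (adjusted p = 0.0139), with a response of -0.64, -2.05 and -2.10 at 6, 12 and 24 h in KO cells and 2.30, 0.53 and -0.13 in WT cells. Its level in KO minus WT cells differed by -0.15 ± 0.44 among stimulated cells (adjusted p = 0.852) and by 2.34 ± 0.44 among vehicle cells (adjusted p = 0.000206). SESN1, a p53 target as well, had a difference of -1.27 ± 0.25 on the mean (adjusted p = 0.00219), with a response of -3.26, -3.16 and -3.23 in KO cells and -2.01, -1.97 and -1.86 in WT cells. SESN1 levels in KO minus WT cells differed by -0.43 ± 0.18 among stimulated cells (adjusted p = 0.0883) and by 0.84 ± 0.18 among vehicle cells (adjusted p = 0.000786). ACOD1, the targeted gene, had a difference of -3.10 ± 0.67 at 6 h (adjusted p = 0.0311) and -2.22 ± 0.38 on the mean (adjusted p = 0.000561).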

How the results depend on the processing

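No call of the 44 genes changed direction under any alternative run. Of 22464 recomputed gene changes 358 lost a call and 256 gained one. Another 123, called in neither fit, moved in size by the gene's residual standard deviation or more. The remaining 21727 were called in both fits, or in neither with a smaller move. They therefore include changes that had no call to lose, and 358 is not a share of calls. The counts of called genes for stimulated against vehicle cells were 32, 38 and 42 in KO cells and 29, 38 and 43 in WT cells at 6, 12 and 24 h. These stayed within 1.5 times under the alternatives that left out no library.

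Without 1 library at a time the same counts ran from 19 to 33, 22 to 39 and 34 to 44 in KO cells and from 23 to 24, 25 to 39 and 39 to 43 in WT cells. The lows of over 1.5 times were 19 without KO stimulated 6 h replicate 2 and 20 without KO vehicle 6 h replicate 1, 22 without KO stimulated 12 h replicate 2, and 25 without WT stimulated 12 h replicate 2. Counts of calls ran from 0 to 3 for KO against WT on the mean of stimulated times, 0 to 1 in stimulated cells at 6 h, 0 to 4 on the mean of vehicle times, 5 to 7 for KO and 6 to 19 for WT stimulated cells between 24 and 6 h, and 0 to 3 for KO and 0 to 8 for WT cells in the difference of responses.

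Library weights gave 1, 1 and 1 calls for KO against WT in stimulated cells at 6, 12 and 24 h and 6 on their mean, 6 and 3 in vehicle cells at 6 and 24 h and 8 on their mean, and 1, 1 and 2 interactions at 12 h, at 24 h and on the mean. They gave 14 calls between 24 and 6 h in KO stimulated cells, and 9 in KO and 11 in WT cells for the difference of responses. Fits of only the libraries compared gave 0 on the stimulated mean, 5 on the vehicle mean, 3 and 3 between 24 and 6 h in KO and WT stimulated cells, and 1 for the KO difference of responses. On the vehicle mean the stricter filter gave 0, which drops MCM10 from the test, and the pseudocount gave 3. A minimum log2 change of 1 gave 0 on the stimulated mean. The estimate of the weights stopped short of its convergence tolerance, and the cause of the other shifts was not tested.

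With replicate number as a block 4 genes were called on the stimulated mean (CDK2, AURKA at -0.51, CDK1 at -0.76 and MCM2 at 0.53), 1 in stimulated cells at 6 h (AURKA, -1.25), 4 on the vehicle mean (MCM10, MCM5 at -0.58, MCM6 at -0.61 and RFC3 at -0.74) and 1 interaction on the mean (MCM5, 0.80). In KO cells at 24 h all 44 were then called.

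Both alternatives chosen after seeing the data left libraries out. Without both libraries of lowest correlation to their group 19 genes were called in KO cells at 6 h, 0 on the stimulated and 2 on the vehicle mean. Without all of replicate 2 there were 2, 2 and 3 in stimulated cells at 6, 12 and 24 h and 9 on their mean, 5 in vehicle cells at 24 h and 9 on their mean, 2 interactions at 24 h and 3 on the mean, and 13 between 24 and 6 h in KO stimulated cells. The shares of all genes called in these fits are not given here. Over 100 bases before to 50 after the start, E2F words stood in 45.8% of S-phase and 0% of mitotic promoters, CHR words in 0% and 58.3%, and CCAAT in 50% and 75%. The table holds no read counts, so the precision of low levels is unknown.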
